A study of Drosophila melanogaster with 9 samples.

Results

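Testes of *Nxt1* mutant flies were compared with control testes by the RNA they held, over all genes on the array. The comparison covers 6 of the 9 Affymetrix *Drosophila* arrays of the series, chosen by their titles, with 3 arrays of *Nxt1* and 3 of control testes. Mutant males were w; *Nxt1* z2-0488/*Nxt1* DG05102 and had been cultured at 25°C. Control males were w; tinRNAi/+; bamGal4VP16/+, cultured at 29°C, and their testes are described as normal. All testes were adult, taken by hand no more than a day after eclosion. The remaining 3 arrays, of aly[5] red[1] e[1] testes from flies cultured at 27°C, added to the model's estimate of spread and gave a second measure of signal level. Of the mutant alleles, z2-0488 carries an amino acid substitution and DG05102 an insertion in the coding region. How much Nxt1 protein the mutant testes held was not measured here. The control flies carried a hairpin against *tin* driven in germ cells by bam-Gal4VP16. Culture temperature cannot be told apart from genotype, and neither can a batch of arrays, should mutant and control RNA have been hybridised at different times. The labels do not say that arrays of a genotype came from separate cultures, so the spread behind each p-value may be technical.

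Nxt1 is the small partner of Nxf1, the receptor that carries most mRNA through the nuclear pore. *Drosophila* primary spermatocytes transcribe nearly all the genes that spermatids will use, because transcription largely stops at meiosis, and many of these genes are testis-specific copies of genes used in other cells. In meiotic arrest mutants the germ cells stop as mature primary spermatocytes, and spermatids do not form. In RNA from whole testes, fewer cells of a type and less RNA per cell cannot be told apart.

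The values were RMA signals on a linear scale, compared as log2 values. Each probe set, the group of probes that reads 1 transcript, was tested with limma and passed at an adjusted p under 0.05 over all 18769 probe sets. The *Nxt1* gene itself gave signals of 344, 350 and 351 in control and 808, 940 and 859 in *Nxt1* testes. Its signal was higher in the mutant, by 1.32 on the log2 scale (SE 0.14, limma adjusted p = 1.57e-05), so it does not check the labels, since neither allele removes the transcript by design. Arrays of a genotype correlated at 0.991 to 0.997 over all probe sets, and *Nxt1* with control arrays at 0.843 to 0.864. The log2 ratio of 3′ to 5′ signal, which rises as RNA degrades, was highest on control array 3 of these 6 for all 5 control transcripts on the array (1.74 for actin against 1.06 to 1.30 on the other 2 control arrays). For 1 of the 5, a GAPDH set, it was 2.17 to 2.46 on control and 1.44 to 1.75 on *Nxt1* arrays, and its part in the results was not tested. The summed signal of 11 accessory gland markers ran from 1229 to 31691 on control and from 45973 to 140505 on *Nxt1* arrays, and on 1 control array the markers SP and Acp53Ea read 30 and 22.5. This signal varied among arrays of a genotype as well as between genotypes, and its part in other results was not tested.

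Over 11981 genes, each read by its brightest probe set, 3174 (26.5%) were lower and 5305 (44.3%) higher in *Nxt1* testes, and the median gene differed by 0.16 on the log2 scale. Changes in the 2 directions had unlike sizes. Passing losses of 2 fold or more numbered 1824 (15.2%) and gains of that size 2927 (24.4%). From 4 fold upwards there were more losses, 1129 (9.42%), than gains, 820 (6.84%), and from 16 fold upwards 453 (3.78%) and 23 (0.192%). The arrays of the 2 genotypes did not overlap in 31% of genes with *Nxt1* lower and 47.1% with *Nxt1* higher. Most of the loss therefore lay below the 16 fold limit: 1350 genes were less than 2 fold lower, 695 lay between 2 and 4 fold, 397 between 4 and 8 fold and 279 between 8 and 16 fold. The larger the loss, the brighter the genes had been in control testes, with a median control signal of 174 in the band under 2 fold and 1254, 2755, 3895 and 4277 in the bands above it. A loss of 16 fold needs a control signal well above the lowest on the arrays, 12.1, so that order is in part fixed by the bands themselves. The share of genes known only by a CG number rose over the same bands, from 51.2% through 57%, 62% and 67.4% to 77.3%, where it was 43.5% over all genes. Among genes that were higher the share was 33.3%.

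The share of calls varied with signal level. Over all probe sets 24.2% were lower and 34.1% higher. Probe sets were divided into 10 equal bins by their mean signal over the 9 arrays. In bin 1, the dimmest, with signals of 13.5 to 26, 8.9% were lower and 3.36% higher and the median difference was -0.07. In bin 10, the brightest, with signals from 2341 to 33007, 21% were lower and 67.3% higher and the median was 0.73. The share that was higher increased at every step between them, while the share that was lower peaked at 32% in bin 6. Losses of 16 fold or more lay mostly in the middle, with 163 of them in bin 6, 187 in bin 7, 2 in bin 10 and none in bins 1 to 3. A probe set that falls from a high to a low signal has a middling mean, so the level was also taken from the *aly* arrays, which are not in the comparison. However, *aly* is a meiotic arrest mutant too and, by the paper's account, loses most of the transcripts that depend strongly on *Nxt1*. Its level is therefore not independent of the change in *Nxt1* testes, and the bins cannot separate the 2. By that measure 6.71% of bin 1 and 76.5% of bin 10 were higher, and the share that was lower peaked at 38.2% in bin 5. The deposited table has no detection call, so a fold into the dimmest signals is given as measured.

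**Figure D1:**
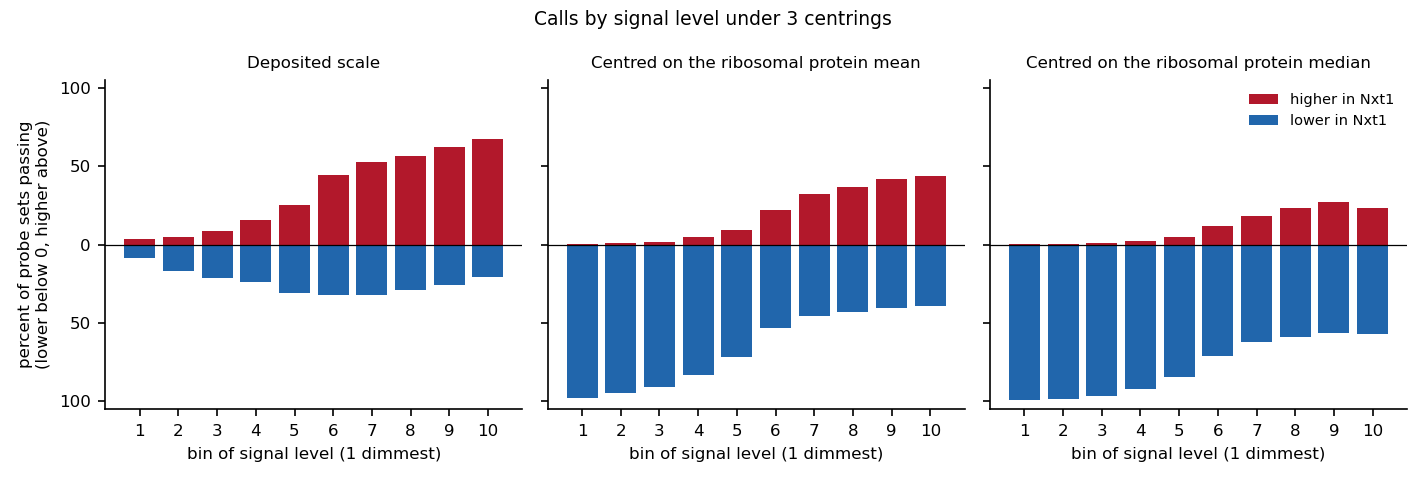
Percent of probe sets passing as higher (above 0) or lower (below 0) in *Nxt1* than in control testes, in 10 equal bins of mean signal over the 9 arrays, on the deposited scale and with arrays centred on the mean or the median of the ribosomal protein probe sets. On the deposited scale 67.3% of bin 10, the brightest, were higher, and this share was 43.8% and 23.3% under the 2 centrings, where 97.9% and 99.5% of bin 1, the dimmest, became lower.

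The balance of the directions depended on what was held equal between arrays. RMA normalises arrays to each other. Median signals of the 9 arrays ran from 98.4 to 109.5, and the log2 array medians differed by 0.01 between *Nxt1* and control. The mean of 47 probe sets for ribosomal proteins was 0.65 higher in *Nxt1* testes on the log2 scale, their median 1.13 higher, and CG3927, the gene the study scaled its q-RT-PCR to, 0.77 higher. CG3927 gave 5110, 4965 and 4922 in control and 8378, 8497 and 8790 in *Nxt1* testes. Centred on the ribosomal protein mean, 56.2% of genes were lower and 25.7% higher. Centred on their median the shares were 70.7% and 14.9%, and on CG3927 59.8% and 22.3%. Counts of family members under a centring are to be read against these shares of all genes. Over probe sets the shares lower and higher were 66.1% and 19.4%, 77.7% and 11.2%, and 69.1% and 16.8% under these centrings in the same order. Each centring lowers every difference by its own shift, so a family whose median lay above 1.13 stays above 0 under all of them, and the difference between a family and all genes does not move.

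**Figure D2:**
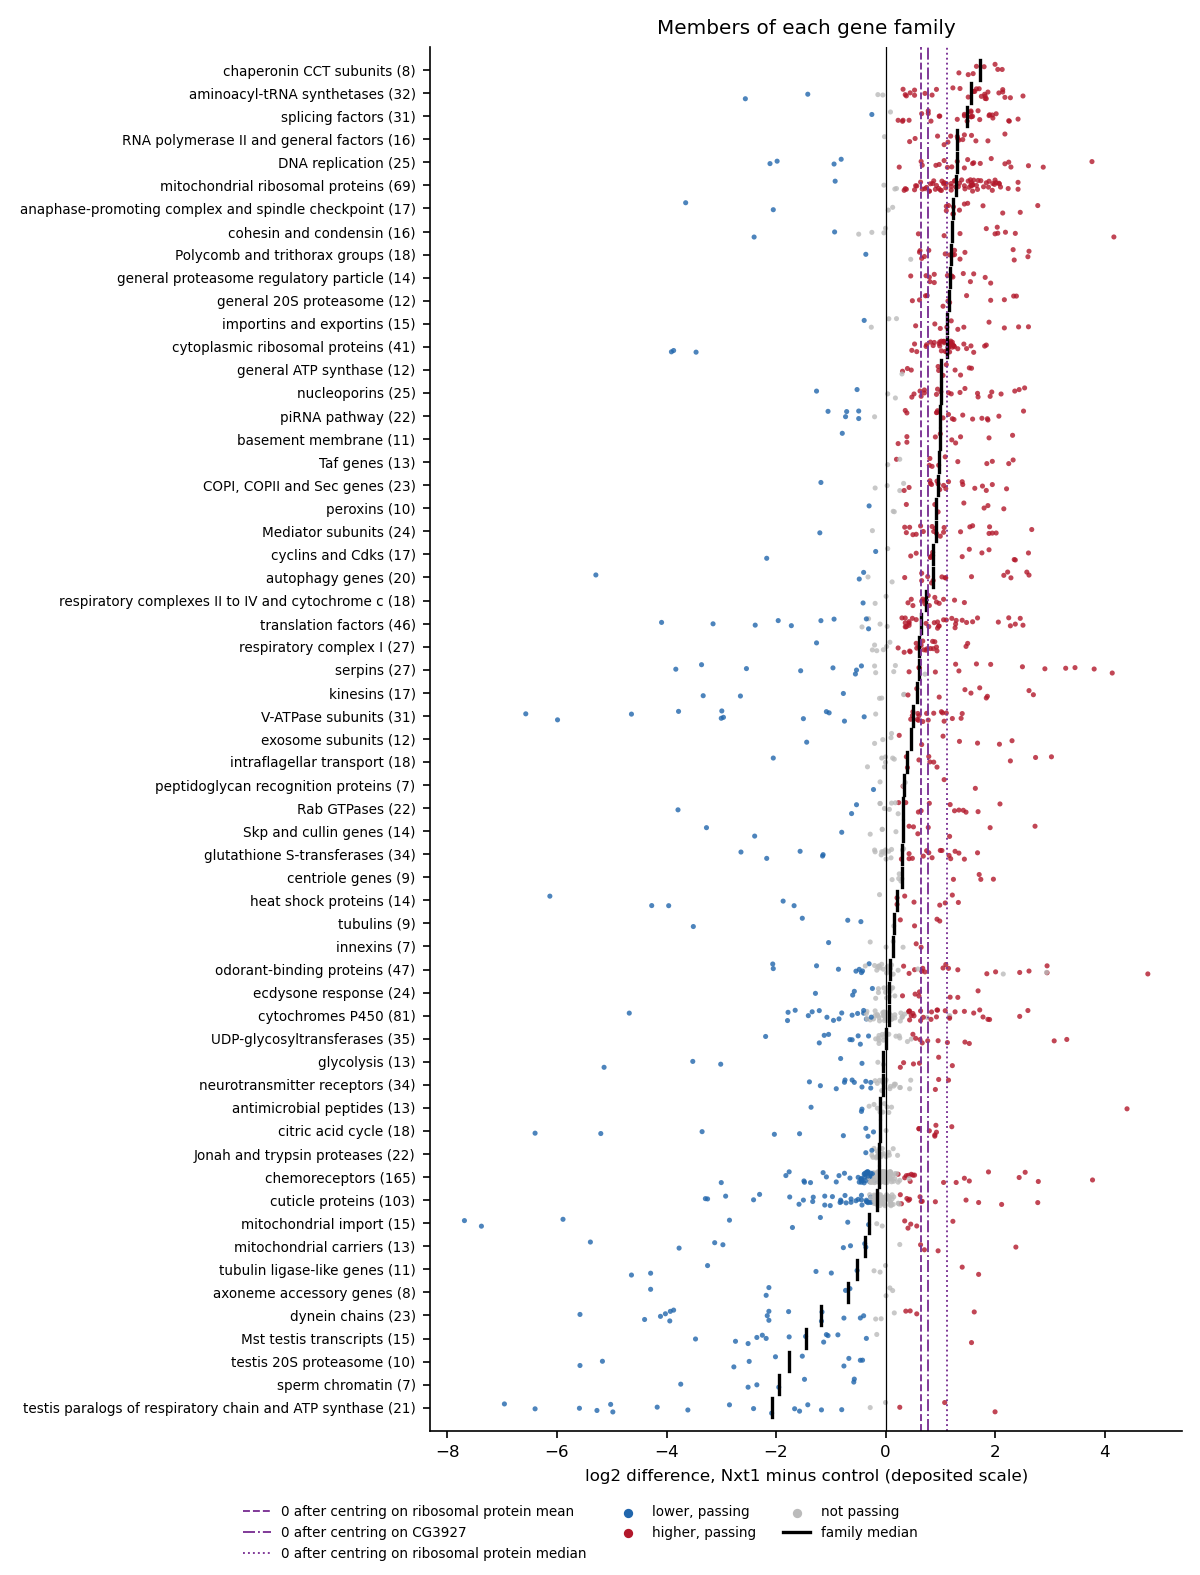
Log2 difference, *Nxt1* minus control, of each member of the gene families with 7 or more measured genes (number in brackets), with the family median as a black bar and points coloured by call on the deposited scale. Purple lines mark where 0 would lie after centring on the ribosomal protein mean (0.65), CG3927 (0.77) or the ribosomal protein median (1.13). Testis paralogs of the respiratory chain have the lowest median at -2.08 and the chaperonin subunits the highest at 1.73, and families with a median between 0 and 1.13 change sign under one or more centrings.

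Lists of sperm tail genes held more lower than higher members, apart from the tubulins. The axoneme, the microtubule core of the tail, is moved by dyneins, and 16 of 23 dynein chain genes were lower and 4 higher, with a median of -1.17, against 26.5% and 44.3% of all genes. The Y-linked dynein heavy chain gene kl-3 gave 550, 529 and 310 in control and 22.3, 24.3 and 17.7 in *Nxt1* testes (log2 difference -4.40, SE 0.22, limma adjusted p = 5.05e-08). The groups did not overlap, although 1 control array read lower than the other 2. The light chain robl37BC gave 4605, 4947 and 4505 against 112, 95.4 and 88, a loss of 47.8 fold. Of the 4 dynein genes that were higher, ctp, a light chain used by cytoplasmic dynein in many cells, changed most: 4088, 3672 and 3926 in control and 12443, 11848 and 11645 in *Nxt1* testes, with a log2 difference of 1.62. With any of the 3 centrings ctp was the single dynein gene still higher. Among 8 other axoneme genes 5 were lower and none higher, led by Tektin-A at -4.29, a filament protein of tail microtubules. Of the tubulin ligase-like enzymes, which add glutamates or glycines to tubulin, 6 of 11 were lower and 2 higher. TTLL6A gave 9058, 8953 and 9418 in control and 460, 383 and 278 in *Nxt1* testes.

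The tubulins themselves divided, with 4 of 9 lower and 4 higher on the deposited scale, against 26.5% and 44.3% of all genes. With the ribosomal protein mean or CG3927 6 were lower and 1 higher, and with the ribosomal protein median 7 and 0. Of all genes 56.2%, 59.8% and 70.7% were lower and 25.7%, 22.3% and 14.9% higher under these centrings in that order. The log2 difference was -3.51 in betaTub65B and -0.69 in betaTub85D, the beta tubulin of spermatocytes and sperm tails. Genes of the *Mst* group, transcripts specific to the male germ line, were lower in 13 of 15 cases with a median of -1.46. Mst98Ca was among the brightest genes with a change of 4 to 16 fold, with 22542, 22065 and 22280 in control and 4894, 4836 and 4327 in *Nxt1* testes. Its mutant signal still lay in the range of bin 10. Mst85C went the other way, with 131, 123 and 151 against 405, 435 and 364. All 7 genes for proteins that package sperm DNA were lower. Tpl94D, a transition protein, gave 4307, 4116 and 4130 against 307, 342 and 293 (log2 difference -3.74). Mst77F, a linker histone-like protein, gave 24562, 24664 and 24940 against 5485, 4976 and 4208 (log2 difference -2.35). The protamine genes lost less, with ProtB at -1.48 and ProtA at -0.57.

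Mitochondria in spermatids fuse and run along the tail, and several of their proteins have testis copies. Of 21 testis paralogs of respiratory chain and ATP synthase subunits, 16 were lower and 3 higher, with a median of -2.08. COX6AL, a cytochrome c oxidase subunit, gave 6407, 6175 and 6519 in control and 56.8, 53 and 44.8 in *Nxt1* testes, a loss of 124 fold (limma adjusted p = 4.22e-11). SdhAL, of succinate dehydrogenase, fell from 4215, 4080 and 4212 to 54.8, 40.8 and 54.3. Both ended at signals in the range of bins 3 and 4. Of these paralogs 2 were higher by 2 fold or more. ATPsynbetaL gave 1394, 1426 and 1332 in control and 5227, 5659 and 5757 in *Nxt1* testes, a rise of 2.00 on the log2 scale and 0.87 with the ribosomal protein median. ATPsynepsilonL was higher by 1.08 on the deposited scale and at -0.05, not passing, with the ribosomal protein median. The general subunits of the same machinery were mostly higher on the deposited scale: 20 of 27 in complex I (median 0.61), 15 of 18 in complexes II to IV and cytochrome c (0.73) and 11 of 12 in ATP synthase (1.01). Of all genes 44.3% were higher. The median signals of these lists, 4531, 5619 and 6766, lay in the range of bin 10, where 67.3% were higher with a median of 0.73. The directions of the general subunits did not hold under centring on the ribosomal protein median, where 25, 14 and 4 of them were lower and 2, 1 and 3 higher. Of all genes 70.7% were lower and 14.9% higher with that centring.

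Protein import into mitochondria followed the same division, with 8 of 15 genes lower and 5 higher, against 26.5% and 44.3% of all genes. A testis form of the outer membrane channel Tom40, tomboy40, gave 9077, 9426 and 8904 in control and 41.7, 44.1 and 46.9 in *Nxt1* testes. This was a loss of 207 fold. Tim17a1 fell by 7.38 on the log2 scale. In the citric acid cycle 9 of 18 genes were lower and 8 higher, and mAcon2, an aconitase gene, gave 5261, 5023 and 5411 against 171, 149 and 113. In glycolysis 5 of 13 were lower and 6 higher. The hexokinase gene Hex-t1 gave 2357, 2566 and 2757 in control and 86.1, 75.7 and 58.7 in *Nxt1* testes, while Pgk, phosphoglycerate kinase, was higher by 1.22 on the deposited scale and by 0.09 with the ribosomal protein median. Of 13 mitochondrial carrier genes 8 were lower and 4 higher, led by Slc25A46b at -5.39 and Ucp4C, an uncoupling protein gene, at -3.77. The V-ATPase, a proton pump of acidic compartments, had 12 of 31 genes lower and 18 higher. Vha100-3 fell from 4909, 5165 and 5836 to 64.3, 43.2 and 62.5, and the log2 difference of VhaM9.7-d was -5.99. Centred on the ribosomal protein median, 70.7% of all genes were lower and 14.9% higher. In these lists 14 import genes were then lower and 0 higher, and 17 and 0 in the citric acid cycle. Lower and higher genes numbered 11 and 0 in glycolysis, 11 and 1 among carriers and 24 and 2 in the V-ATPase.

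The proteasome showed opposite changes in its testis and general subunits. All 10 testis forms of the 20S core were lower (median -1.77), and all 12 general forms were higher (median 1.15), where 26.5% of genes were lower and 44.3% higher. Prosalpha3T gave 2537, 2637 and 2557 in control and 61.4, 52.7 and 48.1 in *Nxt1* testes, and its general form Prosalpha3 gave 5436, 5834 and 5518 against 12532, 12665 and 12605. Neither gene had overlapping arrays. The testis forms stayed lower in all 10 cases under every centring, but of the general forms 8 stayed higher with the ribosomal protein mean and 5 with the median, where 4 became lower. With that median 70.7% of all genes were lower and 14.9% higher. Prosalpha6 and Prosbeta2 were higher under all centrings, by 2.39 and 2.34 on the deposited scale. The 14 general genes of the regulatory cap were all higher (median 1.17), of which 5 stayed higher and 6 became lower with the ribosomal protein median, and of its 4 testis forms 2 were lower and 2 higher. Rpn13R fell by 3.73, whereas Rpt4R, an ATPase subunit, gave 2489, 2333 and 2370 in control and 7138, 7390 and 7271 in *Nxt1* testes, close in size to its general form Rpt4.

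In other lists of protein turnover some members were lower and others higher. Roc1b, a RING subunit of cullin ligases, had a log2 difference of -3.27 and SkpF, an adaptor of such ligases, of -2.39, while the scaffold Cul4 gave 616, 571 and 639 in control and 4023, 4063 and 4025 in *Nxt1* testes. Of 14 Skp and cullin genes 3 were lower and 7 higher. Among 14 heat shock genes 5 were lower and 8 higher, and the 5 lower ones were all at least 2 fold down. Hsc70-1 gave 5314, 5303 and 5348 against 77.3, 82.4 and 68.4, a loss of 70.2 fold. The log2 difference was -1.87 in Hsc70-2. In the Hsp60 forms paired with Hsp60A it was -3.96 (Hsp60B), -1.67 (Hsp60C) and -4.27 (Hsp60D). Hsp60A itself was at 0.21 on the deposited scale and lower with the ribosomal protein mean, their median or CG3927. Of 20 autophagy genes 15 were higher, and Atg8b, a testis form of the protein that coats autophagosomes, fell by 5.29 on the log2 scale. With the ribosomal protein median 11 Skp and cullin, 10 heat shock and 10 autophagy genes were lower and 2, 0 and 6 higher. Of all genes 70.7% were lower and 14.9% higher with that centring. The 8 subunits of the CCT chaperonin, which folds actin and tubulin, were all at least 2 fold higher and stayed higher under every centring. CCT3 gave 1958, 1900 and 1787 in control and 8264, 8398 and 8109 in *Nxt1* testes (log2 difference 2.13, SE 0.07, limma adjusted p = 2.46e-09).

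**Figure D3:**
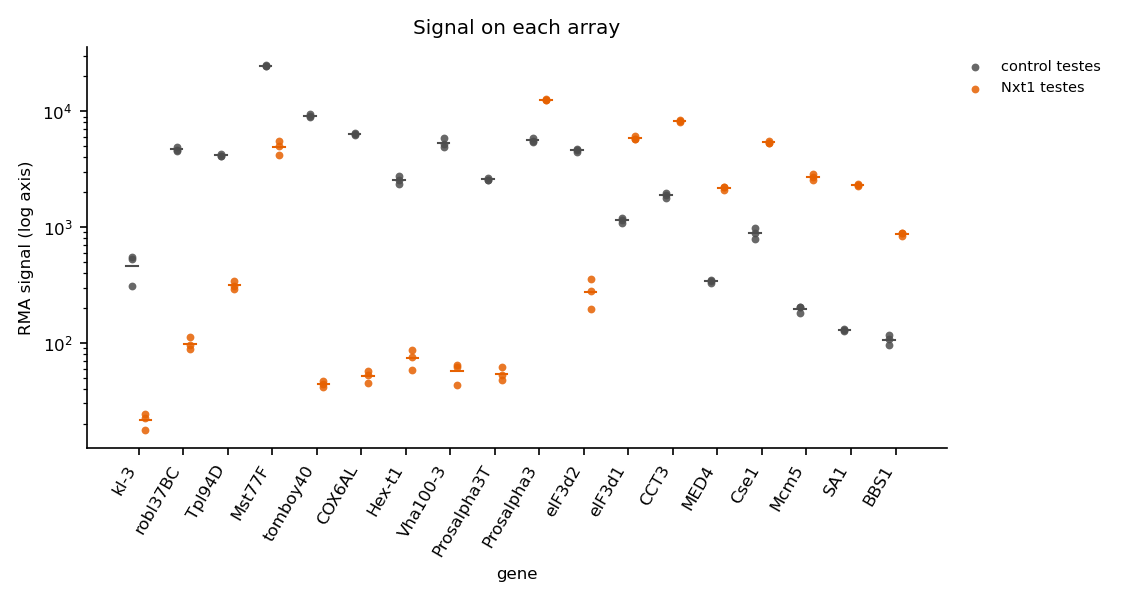
RMA signal (log axis) of 18 genes on each of the 3 control and 3 *Nxt1* arrays, with horizontal bars at the means. For every gene shown the 2 genotypes are apart on all arrays: the genes that were lower end between 17.7 and 5485 in *Nxt1* testes, and the others rise, by 4.17 on the log2 scale in SA1.

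Most genes for the machinery of protein synthesis were higher on the deposited scale, against 44.3% of all genes. Of 41 cytoplasmic ribosomal protein genes 38 were higher, and the median was 1.12. The 3 that were lower were all paralogs of another ribosomal protein gene: RpL10Aa gave 10617, 10702 and 10464 in control and 790, 719 and 619 in *Nxt1* testes, and the log2 differences of RpS28-like and RpS28a were -3.87 and -3.46. Centred on the median of this same group, 6 were higher and 11 lower, by construction. Of all genes 14.9% were higher and 70.7% lower with that centring. Mitochondrial ribosomal proteins were higher in 65 of 69 cases (median 1.28) and in 33, against 19 lower, with the ribosomal protein median. The enzymes that charge tRNAs were higher in 28 of 32 cases with a median of 1.56, and in 18, against 13 lower, with the ribosomal protein median. AspRS-m, the mitochondrial aspartate enzyme, gave 868, 761 and 879 in control and 4906, 4582 and 4739 in *Nxt1* testes. CysRS-m was a large exception, with 8437, 8310 and 8320 against 1471, 1353 and 1424. Translation factors were mixed, with 33 of 46 higher and 9 lower, 20 in each direction with the ribosomal protein mean, and 11 higher and 26 lower with the median. On the deposited scale their median difference was 0.65 at a median signal of 3779. That signal is in the range of bin 10, where 67.3% of probe sets were higher with a median of 0.73. Within the translation factors the paralogs of eIF3d parted: the difference of eIF3d2, the testis form, was -4.09, and eIF3d1 rose from 1151, 1193 and 1077 to 5800, 5759 and 6109. The cap-binding protein gene eIF4E6 was higher by 2.51.

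Genes for transcription and RNA handling were higher in most cases on the deposited scale, against 44.3% of all genes. RNA polymerase II and its general factors had 15 of 16 genes higher and none lower (median 1.31), Mediator, which links activators to the polymerase, 22 of 24 (0.92), and splicing factors 29 of 31 (1.49). The Mediator gene MED4 had a mean signal of 341 ± 8.43 (SD, n = 3) in control testes and gave 2200, 2100 and 2199 in *Nxt1* testes, a rise of 2.67 on the log2 scale. TfIIEbeta was higher by 2.18 and the splicing factor Sf3b2 by 2.42. These 3 genes were higher under every centring. As families Mediator had 7 genes higher and 9 lower with the ribosomal protein median, while splicing factors had 18 higher and 10 lower. Of all genes 14.9% were higher and 70.7% lower with that centring. The polymerase list had 6 higher and 3 lower. Exosome subunits, which degrade RNA, had 7 of 12 genes higher and 1 lower on the deposited scale and 3 and 7 with the ribosomal protein median.

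Transport through the nuclear pore is the step in which Nxt1 acts. Of 25 nucleoporin genes 21 were higher and 2 lower (median 1.01), and of 15 importins and exportins 11 were higher and 1 lower (median 1.12). Of all genes 44.3% were higher and 26.5% lower on the deposited scale. Nup75 was higher by 2.54, and emb, the exportin for proteins with a nuclear export signal, gave 488, 442 and 456 in control and 2756, 2317 and 2408 in *Nxt1* testes. Cse1, which returns importin alpha to the cytoplasm, gave 977, 796 and 896 against 5361, 5314 and 5523. With the ribosomal protein median 10 nucleoporins stayed higher and 9 were lower, and 5 of the transport receptors went each way. Of all genes 14.9% were higher and 70.7% lower with that centring. Ran-like, a testis form of the GTPase that drives such transport, gave 6344, 6369 and 6307 in control and 27.3, 28.4 and 33.2 in *Nxt1* testes. Ran gave 2557, 2409 and 2451 against 3369, 3200 and 3303, a difference of 0.41 that became -0.24, -0.36 and -0.72 when centred on the ribosomal protein mean, CG3927 and the ribosomal protein median.

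Most genes of the cell cycle lists were higher on the deposited scale, against 44.3% of all genes. Of 25 DNA replication genes 21 were higher and 4 lower, with a median of 1.31. Mcm5, part of the replicative helicase, gave 204, 205 and 182 in control and 2546, 2679 and 2843 in *Nxt1* testes (log2 difference 3.77, SE 0.08, limma adjusted p = 2.12e-10). This rise of 13.7 fold was the largest in its family. Under the ribosomal protein median 12 replication genes stayed higher and 7 were lower. The anaphase-promoting complex and the spindle checkpoint had 13 of 17 genes higher, all 13 by at least 2 fold. Mad1, a checkpoint gene, rose from 448, 377 and 425 to 2741, 2882 and 2939, but fzr2, a testis activator of the complex, fell from 4728, 4808 and 4678 to 345, 410 and 379. Cohesin and condensin had 10 of 16 genes higher and 2 lower. SA1, a cohesin subunit, gave 129, 127 and 131 against 2258, 2364 and 2328, an 18 fold rise, and Cap-G of condensin fell by 2.40. With the ribosomal protein median the balance of higher to lower was 6 to 4 in the checkpoint list, 7 to 7 in cohesin and condensin and 7 to 7 in cyclins and Cdks. Of all genes 14.9% were higher and 70.7% lower with that centring. CycT was the cyclin gene with the largest fall, at -2.17, among 17 cyclins and Cdks of which 14 were higher. Polycomb and trithorax group genes, which hold the expression state of chromatin, were higher in 16 of 18 cases, with Sce at 2.62 and mor at 2.60, and their balance was 5 higher to 6 lower with the ribosomal protein median.

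Markers of germ cell stages changed in both directions. Of 3 early germ cell markers bam and bgcn were higher and vas lower on the deposited scale, and with the ribosomal protein median 1 was higher and 2 lower. The signals of vas were low, 64.7, 65.5 and 70.6 in control and 52.1, 42.5 and 48.9 in *Nxt1* testes (log2 difference -0.49). The gene bam, the switch from division to differentiation, gave 180, 138 and 176 in control and 560, 510 and 570 in *Nxt1* testes. Among spermatocyte genes can, a testis TAF, was higher by 2.18 and aly, a tMAC subunit, by 1.89, whereas bol, a translational regulator needed for meiotic entry, gave 10169, 9744 and 10412 against 1998, 1797 and 1742. In all, 6 of 11 spermatocyte markers were higher and 3 lower, and with the ribosomal protein median 3 were higher and 7 lower. Their summed signal was 20650 to 22328 on control and 17152 to 17488 on *Nxt1* arrays, with bol the brightest of them in control testes and fzo the next. Of 22 genes of the piRNA pathway, which silences transposons in germ cells, 16 were higher and 5 lower, led by aub, a Piwi-family protein gene, with 360, 357 and 303 against 1880, 2016 and 1955. With the ribosomal protein median 7 were higher and 8 lower, against 14.9% and 70.7% of all genes.

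Testis paralogs could be set against their general forms within each array, which no centring alters. Over 75 pairs, 54 of the 75 testis forms were lower and 16 higher, and of the 58 general forms 1 was lower and 55 higher. Of all genes 26.5% were lower and 44.3% higher, and of bin 10, the brightest probe sets, 21% and 67.3%. The general form UQCR-11, counted as higher, lay at low mean signals of 26.9 in control and 36.1 in *Nxt1* testes. In 51 pairs the testis form was lower and the general form higher, and in none the reverse. With the ribosomal protein mean 29 pairs were opposed in that way and with CG3927 26, while with the ribosomal protein median it was 18 and 1 pair was reversed. Of all genes 56.2%, 59.8% and 70.7% were lower and 25.7%, 22.3% and 14.9% higher under these centrings in that order. The log2 ratio of testis to general form fell in 68 of 75 pairs, in 59 of them by 2 fold or more and in 26 by 16 fold or more, with a median change of -3.01. The change of ratio ran from -8.92 in tomboy40 and Tom40 to 1.27 in aly and mip130, the single pair in which the testis form gained by 2 fold or more. The mitofusin pair shows the usual form: fzo, which fuses mitochondria in spermatids, gave 3034, 2822 and 3471 in control and 304, 292 and 238 in *Nxt1* testes, and Marf, its general form, a mean of 322 against 787. A few pairs moved together. RpL37-2 and RpL37-1 were higher by 1.21 and 1.19. Close paralogs can share probe sequence, and the probes were not analysed here. General forms count once in several pairs, so the pairs are not independent.

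**Figure D4:**
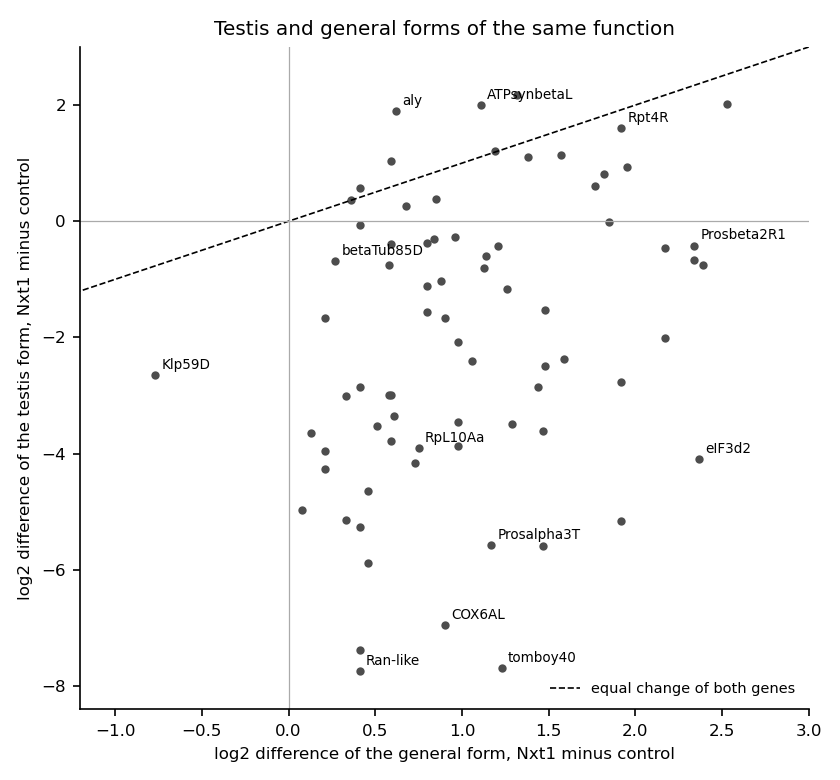
Log2 difference, *Nxt1* minus control, of the general form (x axis) and the testis form (y axis) of 75 paralog pairs on the deposited scale, with the dashed line at equal change. A change of centring moves all points along that line, and 68 of the 75 points lie below it.

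Several families known from tissues other than testis lay at low signals, though not glutathione S-transferases, serpins, innexins or basement membrane genes, with median control signals of 274, 279, 311 and 431 against 286 over all genes. The 165 chemoreceptor genes, which serve smell and taste, had 37 lower, 17 higher and 111 not passing, with a median control signal of 33.2 and a median difference of -0.12. Of 103 cuticle protein genes 33 were lower and 13 higher, and of 22 Jonah and trypsin proteases, digestive enzymes of the gut, 2 were lower and none higher. When arrays were centred on the ribosomal protein mean, 150, 92 and 22 of these were called lower, although their signals were at the low end in both genotypes. With that centring 56.2% of all genes were lower, and 97.9%, 95% and 90.6% of the probe sets in bins 1, 2 and 3. Single members moved by more. Ir75a, an olfactory receptor gene, gave 24.8, 24.4 and 23.5 in control and 322, 349 and 329 in *Nxt1* testes, and Gr33a, a taste receptor gene, 25.7, 25.1 and 24 against 172, 179 and 165. Gr32a, another taste receptor gene, went down, from 662, 682 and 619 to 90.9, 88.8 and 67.6. Cyp310a1 fell by 4.68 among 81 cytochrome P450 genes, of which 17 were lower and 27 higher on the deposited scale and 62 and 8 with the ribosomal protein median. The shares of all genes were 26.5% lower and 44.3% higher on the deposited scale, and 70.7% and 14.9% with that median.

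Among the 6256 dimmest probe sets, with mean signals up to 52.4, the largest changes included genes known from neurons and cuticle. Gad1, which makes the transmitter GABA, gave 23.4, 20.6 and 20.3 in control and 269, 148 and 179 in *Nxt1* testes. The gene of a homeodomain factor of the nervous system, pros, gave 115, 107 and 221 against 19.3, 18.6 and 19.3. Cpr97Eb, a cuticle protein gene, fell by 3.29. Of 18 genes of intraflagellar transport, which builds sensory cilia and is not needed for the *Drosophila* sperm tail, 10 were higher and 1 lower on the deposited scale and 3 and 11 with the ribosomal protein median. Of all genes 44.3% were higher and 26.5% lower on the deposited scale, and 14.9% and 70.7% with that median. BBS1 rose from 117, 95.9 and 108 to 843, 895 and 885, and nompB fell from 787, 882 and 753 to 158, 192 and 240.

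Among bright genes with changes of 4 to 16 fold, which a 16 fold rule leaves out, the lower ones included Mst84Db at -2.18 and S-Lap8, a leucylaminopeptidase of sperm, with 20277, 19950 and 20262 in control and 5607, 4706 and 3512 in *Nxt1* testes. The higher ones included Rbp4, a germ line RNA-binding protein gene, with 2199, 2057 and 1963 against 11738, 12338 and 11695, and the splicing factor SC35 at 2.02.

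Genes listed as somatic markers changed as well, and which cells of the testis gave their signal was not tested. Of 4 hub markers, genes of the cells that form the stem cell niche, 3 were lower and 1 higher on the deposited scale and all 4 lower when centred on the ribosomal protein mean, their median or CG3927, and CadN, an adhesion protein gene, gave 591, 600 and 645 in control and 74.3, 102 and 69.6 in *Nxt1* testes. Their summed signal was 1026 to 1122 against 345 to 380, with CadN the brightest of them in control testes. The log2 difference was -1.73 in esg and -0.42 in hh, also hub genes. The hub gene that was higher, upd1, gave low signals of 41.4, 42.1 and 38 against 50.6, 53.8 and 49.3 (log2 difference 0.34). Of 4 cyst cell markers 2 were lower and 1 higher (median 0.05), and all 4 were lower with the ribosomal protein median. The largest change among them was in so, at -2.92. Act87E gave 8945, 8837 and 8330 against 2436, 1188 and 1416. Of the other 5 measured genes of the muscle sheath list, up and Tm2 were higher on the deposited scale, by 0.73 and 0.37. The rest did not pass, and with the ribosomal protein median all 5 were lower. The largest losses in the hub, cyst cell and muscle sheath lists were also seen in *aly* testes. CadN, esg, so and Act87E had mean signals of 612, 192, 1037 and 8704 in control testes and 59.7, 69.9, 201 and 1683 in *aly* testes. The cyst cell gene eya went the other way, with 534 in control and 799 in *aly* testes. Basement membrane genes were higher in 10 of 11 cases on the deposited scale and in 2, against 4 lower, with the ribosomal protein median, led by the laminin gene wb with 96.6, 120 and 124 against 466, 593 and 659. Genes of the accessory gland and ejaculatory duct, which are joined to the testis, differed most from array to array. Acp26Aa gave 24.1, 837 and 1279 in control and 3851, 9966 and 13129 in *Nxt1* testes (limma adjusted p = 0.00865), and Dup99B 26.5, 37 and 2947 against 8992, 4258 and 5130. Acp53Ea, with 22.5, 3741 and 4750 against 6897, 14381 and 20048, did not pass (adjusted p = 0.0631). EbpII, of the ejaculatory bulb, was at 15370 on 1 *Nxt1* array and at 20.2 to 22.2 on the other 5. Among 27 serpins 14 were higher and 8 lower, and among 47 odorant-binding proteins 17 and 9, against 44.3% and 26.5% of all genes. With the ribosomal protein median 4 genes of each family were higher and 15 and 32 lower, against 14.9% and 70.7% of all genes. The leading higher members of both families, Spn38F and Obp51a, had SEs of 1.51 and 1.29 on the log2 scale. Obp51a gave 26.4, 59.6 and 1675 in control and 6682, 2553 and 3277 in *Nxt1* testes. Its arrays ranked as those of Dup99B did, and within *Nxt1* testes not as those of Acp26Aa. The part of accessory gland and duct signal in the 2 families was not tested.

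Neighbouring genes were often lower together. Neighbours are taken among measured genes only. In the order of 11892 genes along the chromosomes, 9.38% passed and were at least 4 fold lower, but of these genes 20.7% had a next gene that was also so lower. For genes at least 4 fold higher the values were 6.89% and 9.66%. These shares are a description, with no test, and neighbours of common origin can share probe sequence. The longest run held 9 genes on arm 2L, from CG11629 to tio, a zinc finger gene, with 6 unmeasured genes lying between its members. CG11634 in it gave 4468, 4460 and 4396 in control and 27.1, 27.3 and 29.2 in *Nxt1* testes, and the smallest change was in CG31600, with 2253, 2191 and 2209 against 521, 509 and 498. A run of 7 genes on the X went from CG15576 (log2 difference -4.11) to CG15579 (-5.07), with 1 unmeasured gene between them. On 3L a run of 6 began with gdrd, needed for sperm individualization, which gave 13633, 14169 and 13684 against 1975, 1940 and 1916, and held CG17177 at -6.37. On 3R another run of 6 held CG17198, with 5460, 5632 and 5160 against 49.6, 45.4 and 48.7, next to CG17196, which fell by 2.91. Among higher genes the longest runs held 3 genes.

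**Figure D5:**
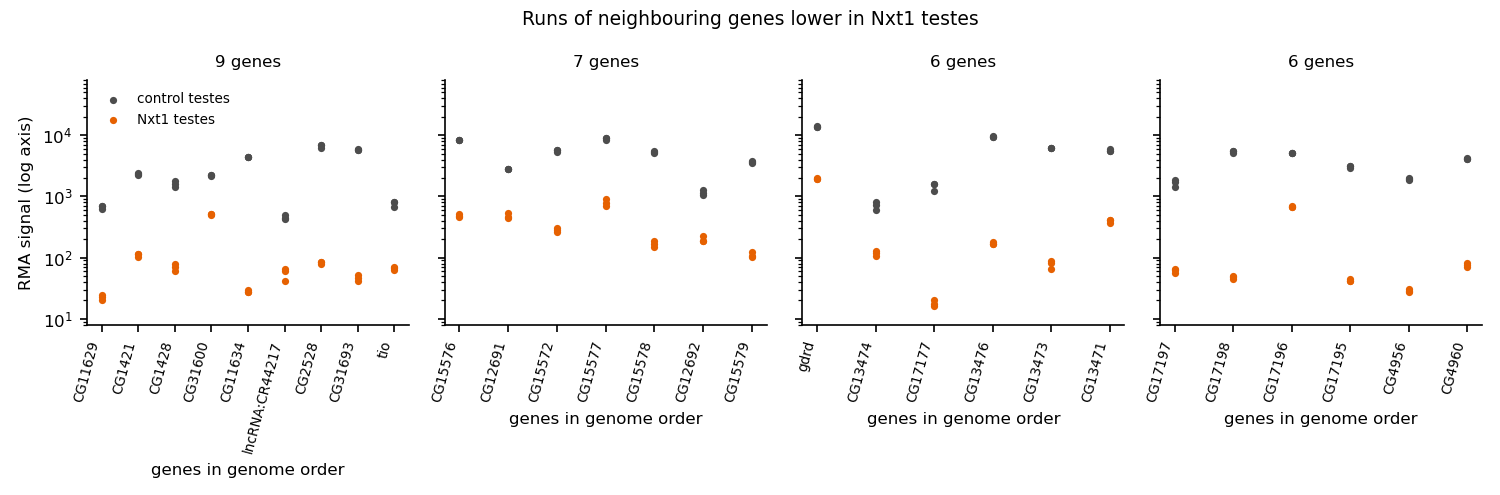
RMA signal (log axis) of the genes in the 4 longest runs of neighbouring measured genes at least 4 fold lower in *Nxt1* testes, in genome order, on 3 control and 3 *Nxt1* arrays. The runs hold 9, 7, 6 and 6 genes, and in each gene every *Nxt1* array lies below every control array, from a log2 difference of -2.12 in CG31600 to -7.32 in CG11634.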

How the data were processed

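Total RNA from whole testes was hybridised to Affymetrix arrays. The authors deposited signal intensities on a linear scale, made with GCOS and RMA (versions not given in the sources used here), which corrects background and normalises arrays to each other. The log2 of each intensity was taken, with nothing added. Of 18952 probe sets 183 control probe sets were left out. Of the 18769 others 13646 carry 1 gene symbol in the platform annotation, 402 several and 4721 none. Gene IDs of 13543 were found in the reference table, used for names and gene order only. Models with 1 mean per genotype were fitted to all 9 arrays with limma 3.58.1 (lmFit, eBayes) in R 4.3.3 and checked on simulated data, with Benjamini-Hochberg adjustment. The number of arrays limits the precision. Tables were made with pandas 2.3.3 and numpy 2.4.6 under Python 3.11.15, and figures with matplotlib 3.10.9.

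The 62 families, the 75 measured pairs and the marker lists were chosen with earlier results of these data known. No list was tested. Named genes are up to 4 members of each family with the largest passing change, both genes of a pair, the largest changes at low, middle and high signal, the brightest genes changed 4 to 16 fold, the longest runs of neighbours and the markers. ProtA, ProtB, ctp, CG31600 and some other members that differ from their family were named after their values were seen. Sequences, introns and proteins were not analysed here.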

Additional observations from a re-analysis of the deposited data

How the results depend on the processing

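Counts of calls depended on centring more than on any other choice tried. On the deposited scale 4533 probe sets were lower and 6395 higher, so 41.5% of calls were lower, and 2126 and 3459 changed by 2 fold or more. Centred on the ribosomal protein mean there were 12397 lower and 3632 higher (77.3% lower, with 3849 and 1544 by 2 fold or more), on CG3927 12971 and 3158 (80.4%, 5236 and 1292), and on the ribosomal protein median, added after seeing the data, 14579 and 2104 (87.4%, 11177 and 721). The cause is in the construction, since each centring subtracts its shift from every probe set. The share of lower calls was 44% with the 6 arrays alone, 40% after quantile normalization, 37.2% without the 6256 dimmest probe sets and 38.6% at an adjusted p under 0.01. Leaving out 1 array at a time gave 3913 to 4871 lower and 5957 to 6615 higher probe sets, with 39.4% to 42.4% of calls lower. Whether the replicate numbers pair the samples could not be settled. Deviations from the genotype mean correlated at r = 0.349, 0.00941 and 0.204 between same-numbered arrays and at -0.352 to 0.275 between others. With 3 arrays per genotype these deviations depend on each other, so the values cannot decide it. With the replicate block 4402 probe sets were lower and 6369 higher.

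Of the 124 genes tracked, 123 kept their call in every setting other than centring that held them (5 were among the dimmest probe sets and had no value without those), and the exception was Acp53Ea, which passed with the block (adjusted p = 0.0437) and without any 1 of the control arrays. Its log2 difference was 1.58 without control array 1 and 4.09 with it. Direction reversed under centring for CG3927 and ATPsynepsilonL (-0.35 and -0.05 with the ribosomal protein median, the latter not passing) and for Ran (-0.24, -0.36 and -0.72, as given above). Of 62 families 58 kept the sign of their median relative to all genes under quantile normalization, leaving out each array, averaging all probe sets of a gene and means on the linear scale, and the others, Skp and cullin genes, tubulins, odorant-binding proteins and innexins, lay within 0.16 of 0.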
